A study of Mus musculus with 6 samples.

Results

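The genes described here are 47 mouse genes of DNA repair, chosen by name from 7 pathways: 10 of base excision and single-strand break repair, 7 of non-homologous end joining, 7 of homologous recombination, 10 of break sensing and checkpoint signalling, 3 of mismatch repair, 3 of the Fanconi anaemia pathway and 7 of nucleotide excision repair. All 47 were found among the 16135 genes with a value in any library, and all 47 were among the 12127 genes tested. RNA was measured in common dendritic cell progenitors (CDPs), a bone marrow stage from which dendritic cells arise, taken from wildtype C57BL/6 mice of 6 to 8 weeks of age and not described as treated. The cells were flow-sorted into CD115-Ly6C-, CD115+Ly6C+ and CD115+Ly6C- subsets, by CD115, the macrophage colony-stimulating factor receptor, and Ly6C, an antigen on monocytes and monocyte precursors. Each subset had 2 polyA-selected RNA-seq libraries. Whether the libraries of 1 subset are of different mice or sorts is not in the labels, so the p-values measure only the spread between these libraries, which may be technical.

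DNA repair is a set of parallel pathways, each suited to a kind of lesion. Base excision repair cuts out single damaged bases and mends nicks, nucleotide excision repair removes bulky lesions, mismatch repair corrects copying errors, and the Fanconi anaemia pathway undoes crosslinks between the strands. Broken chromosomes are rejoined either directly by non-homologous end joining, which works at any stage of the cell cycle and also completes the rearrangement of antigen receptor genes in lymphoid cells, or by homologous recombination, which copies from the sister chromatid and so is used mainly by cells that have replicated their DNA. Blood progenitors are known for relying on these pathways, and loss of several of the genes below depletes the bone marrow of mice or of patients.

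Expected counts (the fractional read counts that RSEM assigns to each gene) summed to 17961541 to 19450329 per library, and 13307 to 14127 genes had a value above 0. The 47 repair genes held 0.416% and 0.408% of the counts in the CD115-Ly6C- libraries, 0.317% and 0.322% in those of CD115+Ly6C+, and 0.409% and 0.382% in the CD115+Ly6C- libraries. The 6 fixed CDP markers, which include Flt3, Kit and Csf1r, were detected in all 3 subsets, with summed levels of 1337 to 1379 FPKM in CD115-Ly6C-, 1139 to 1270 FPKM in CD115+Ly6C+ and 1243 to 1416 FPKM in CD115+Ly6C- (FPKM is a read level scaled for transcript length and library depth). Markers of other bone marrow cells moved with the subsets. The 10 late neutrophil granule genes summed to 357 to 784 FPKM in CD115-Ly6C-, 9254 to 10118 FPKM in CD115+Ly6C+ and 508 to 2033 FPKM in CD115+Ly6C-. The 6 monocyte genes, with Csf1r and Ly6c2 of the sort itself among them, summed to 392 to 536, 3757 to 3833 and 1208 to 1303 FPKM in the same order of subsets. The 6 B cell genes summed to 93.3 to 93.8, 81.3 to 89.3 and 80.2 to 83.1 FPKM, with Pax5 at 0 in both CD115+ subsets. These sums hide differences of single genes. At an edgeR adjusted p under 0.05, 2 of 4 tested B cell genes were higher in CD115-Ly6C- against each other subset. The median log2 fold change of the 4 was 2.45 against CD115+Ly6C+ and 3.50 against CD115+Ly6C-. The CDP markers also differed singly by this threshold and moved both ways. Of the 6, 3 were higher and 2 lower in CD115-Ly6C- than in CD115+Ly6C+, with log2 fold changes from -1.41 to 1.73 over the list. With CD115+Ly6C- as the reference, 2 were higher and 2 lower in CD115-Ly6C-, and 0 higher and 3 lower in CD115+Ly6C+. The 5 T cell genes stayed at or below 1.75 FPKM in sum, the 4 natural killer cell genes at or below 2.02 and the 6 erythroid genes at or below 41.8. At the same threshold, CD115-Ly6C- was higher than CD115+Ly6C+ in 1 of 2 tested T cell, 2 of 2 natural killer and 0 of 4 erythroid genes. Against CD115+Ly6C- it was higher in 1, 0 and 1 of them. The part of such cells in the results was not tested, and in sorted bulk samples fewer cells of a type and less RNA per cell cannot be told apart.

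Levels of the repair genes ran over a wide range. The mean over the 6 libraries was lowest for Lig4 at 1.13 FPKM and highest for H2afx at 248 FPKM, with a median of 13.4 FPKM over the 47 genes. There were 5 genes over 100 FPKM and 8 under 5 FPKM. The most abundant gene of each pathway was Apex1 for base excision repair (214 FPKM), Xrcc6 for end joining (132 FPKM), Rad54l for homologous recombination (49.2 FPKM), H2afx for break sensing, Msh6 for mismatch repair (43.2 FPKM), Fanci for the Fanconi pathway (16.4 FPKM) and Ddb1 for nucleotide excision repair (101 FPKM).

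**Figure D1:**
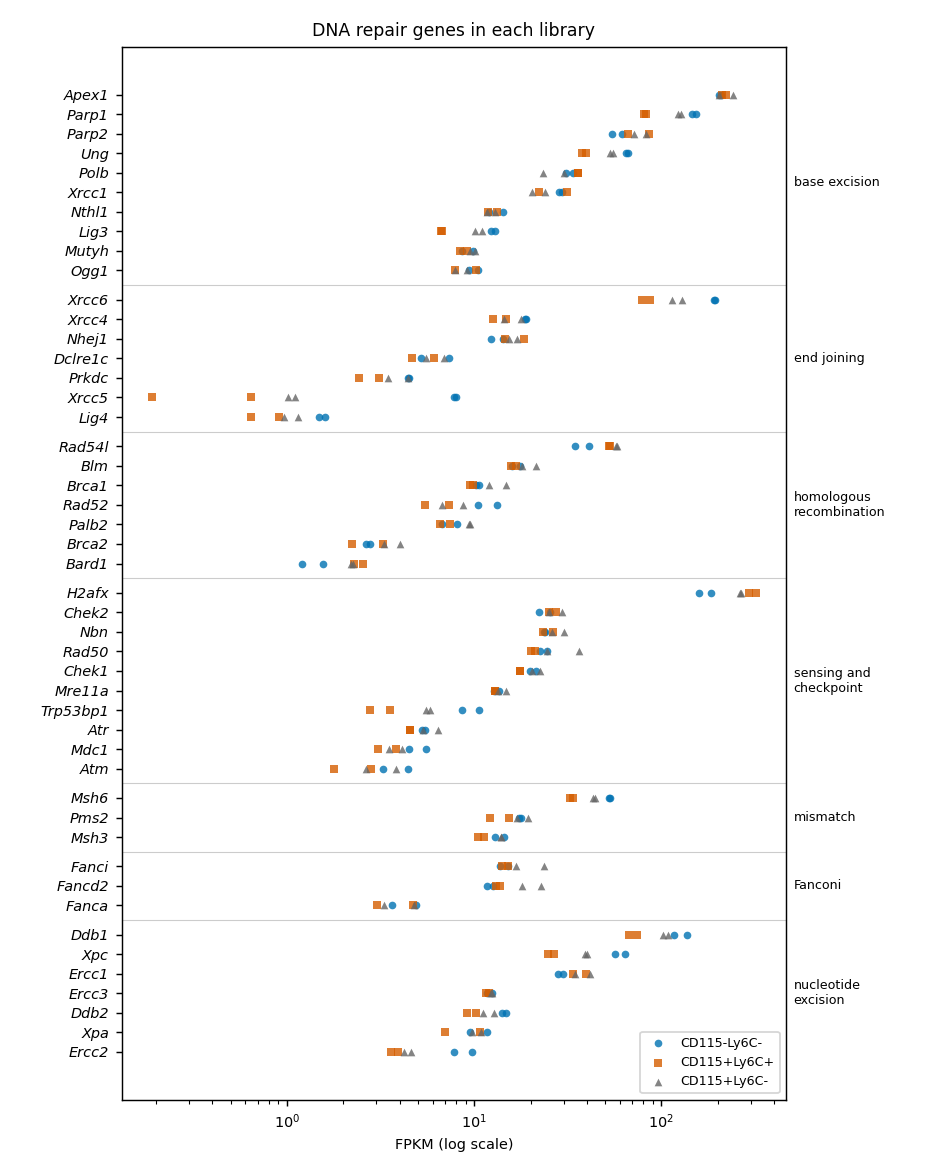
Level of each of the 47 repair genes in every library, in FPKM on a log axis, grouped by pathway. Blue circles are CD115-Ly6C-, orange squares CD115+Ly6C+ and grey triangles CD115+Ly6C-, 2 libraries each, so a reader can see the range from Lig4 (mean 1.13 FPKM) to H2afx (mean 248 FPKM) and the separation of the blue circles at Xrcc5.

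The 3 subsets were compared pair by pair with the quasi-likelihood test of edgeR, and a gene was called when its p-value, adjusted over all 12127 genes, was under 0.05. Of the 47 genes, 21 were called in at least 1 comparison. The other 26 were called in none. Among all genes, 39.3% were called in CD115-Ly6C- against CD115+Ly6C+ alone, so at least that share was called in at least 1 comparison. For CD115-Ly6C- against CD115+Ly6C+, 13 repair genes were higher and 5 lower, 27.7% and 10.6% of the 47, where 20.1% of all genes were higher and 19.2% lower. Calls in either direction made up 38.3% of the repair genes and 39.3% of all genes, and the median log2 fold change was -0.03 for the 47 and 0.03 for all. For CD115-Ly6C- against CD115+Ly6C-, 5 were higher and 6 lower, 10.6% and 12.8% of the 47, where 8.43% of all genes were higher and 6.78% lower (23.4% and 15.2% in either direction), with medians of -0.14 for the repair genes and 0.02 for all genes. In CD115+Ly6C+ against CD115+Ly6C-, 0 were higher and 8 lower, 17.0% of the 47, where 5.26% of all genes were higher and 4.34% lower (9.60% in either direction), with medians of -0.21 and -0.01. The count of 0 higher was also 0 with DESeq2. At an unadjusted p under 0.05, edgeR had 2 repair genes higher and 13 lower in this comparison. Among all 12127 genes, 3383 passed that unadjusted threshold in either direction. Counted instead by FPKM, with both libraries of 1 subset above both of the other, 23 of the 47 repair genes were higher and 9 lower in CD115-Ly6C- against CD115+Ly6C+, where 49.0% and 24.6% of all genes were. FPKM are scaled by library depth without the TMM factors of the fit. Leaving those factors out moved the median of all genes by 0.19 in this comparison. Against CD115+Ly6C-, the CD115-Ly6C- subset had 19 higher and 13 lower (41.2% and 20.7% of all genes), and CD115+Ly6C+ had 3 higher and 28 lower (23.3% and 34.3% of all genes). Each subset enters 2 of the 3 comparisons, so the comparisons share libraries and are not independent. The counts per pathway and per list below are to be read against these shares of all genes. A count near them is no result about a pathway.

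The calls differed in how far they depended on single libraries. Of the 18 calls of CD115-Ly6C- against CD115+Ly6C+, 12 were kept in all 13 alternative settings, including the removal of each library in turn: Ung, Lig3, Parp1, Xrcc5, Xrcc6, Bard1, Rad54l, H2afx, Trp53bp1, Xpc, Ddb1 and Ercc2. The other 6, Parp2, Prkdc, Rad52, Msh6, Ddb2 and Ercc1, are taken up with their genes. Of the 11 of CD115-Ly6C- against CD115+Ly6C-, 2 were kept in all 13, Xrcc5 and Fancd2. The other 9 of these were lost without CD115-Ly6C- replicate 1, with edgeR adjusted p of 0.0623 to 0.239. Without CD115+Ly6C- replicate 1, 7 were lost (0.0559 to 0.282), and without its replicate 2, 5 were lost (0.0536 to 0.114), with Xrcc6, Bard1, Trp53bp1, Xpc and Ercc2 in both. In CD115+Ly6C+ against CD115+Ly6C-, 0 of 8 were kept in all 13. All 8 of these were lost without CD115+Ly6C+ replicate 2, with edgeR adjusted p of 0.0677 to 0.153, and likewise without CD115+Ly6C- replicate 1, with 0.0916 to 0.242, where the lone library is assumed to vary like the other subsets. Without CD115+Ly6C+ replicate 1, 7 of the 8 were lost (all but Trp53bp1), and without CD115+Ly6C- replicate 2, 6 were lost (all but Parp1 and Fancd2). The sign of the 8 values did not turn in any of the 13 settings.

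**Figure D2:**
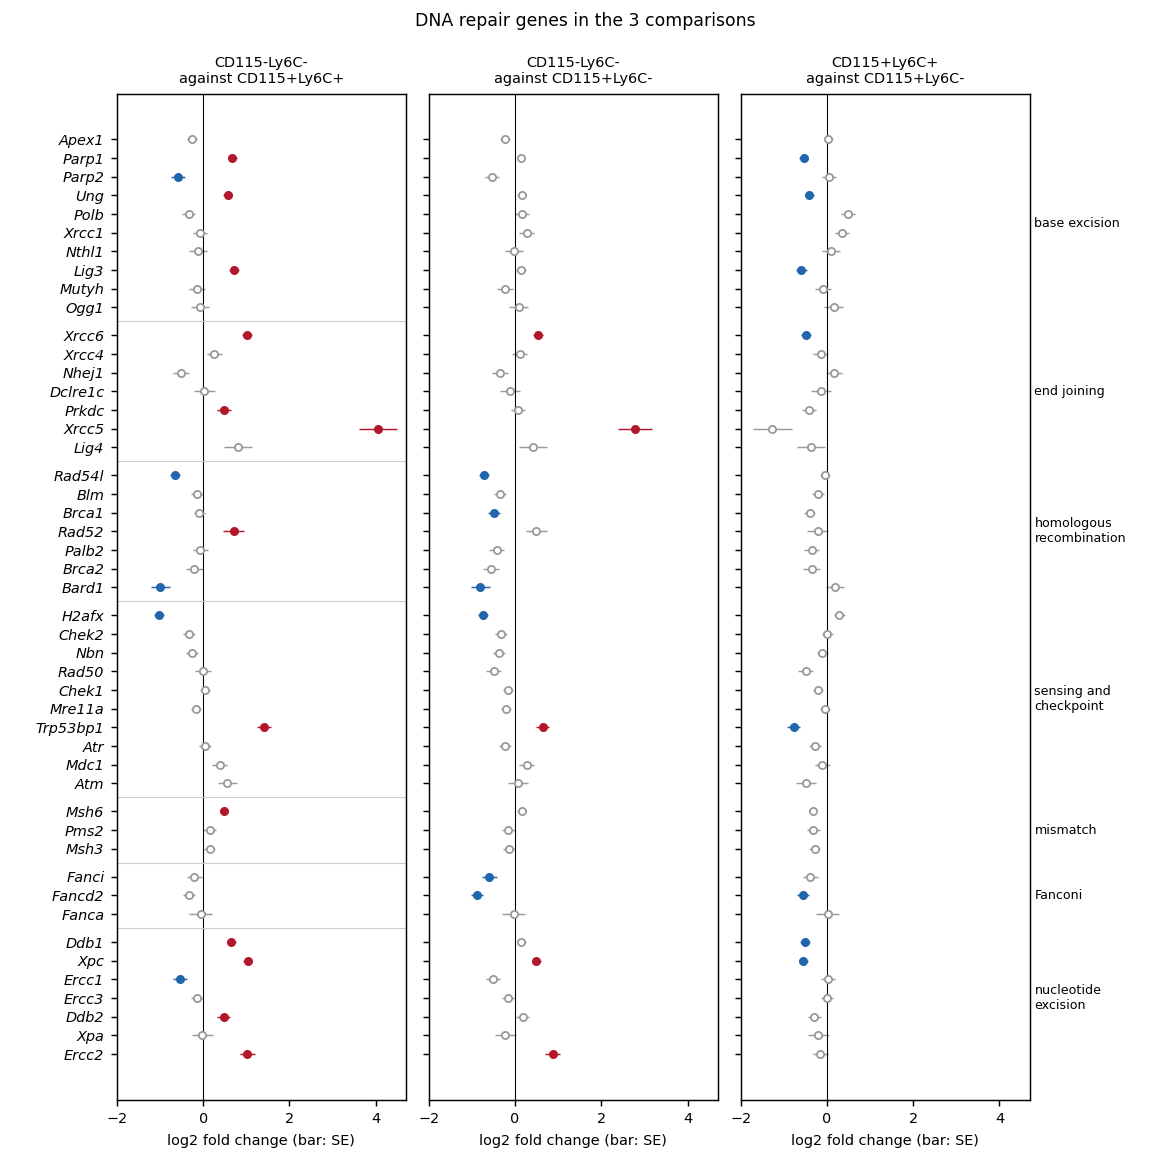
Log2 fold change of each repair gene in the 3 comparisons, with bars of 1 SE. Filled red points were called higher and filled blue points called lower (edgeR adjusted p under 0.05), and open grey points were not called: 13 red and 5 blue for CD115-Ly6C- against CD115+Ly6C+, 5 and 6 for CD115-Ly6C- against CD115+Ly6C-, and 0 and 8 for CD115+Ly6C+ against CD115+Ly6C-.

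Promoters are shown for 6 genes that were called with small adjusted p and that have an entry in the RefSeq promoter table for GRCm38.p6, the assembly also called mm10. They are the stretches of 300 bases that run from 250 before to 50 after the annotated transcript start, written 5′ to 3′ on the gene's own strand. They are Xrcc5 at chr1:72307171-72307470 on the plus strand, Xrcc6 at chr15:82016119-82016418 on the plus strand, Trp53bp1 at chr2:121271358-121271657 on the minus strand, Parp1 at chr1:180568641-180568940 on the plus strand, Lig3 at chr11:82780859-82781158 on the plus strand and Ercc2 at chr7:19381767-19382066 on the plus strand. For Xrcc6 and Trp53bp1 the start used lies inside the gene bounds given below, so these genes extend upstream of the stretch shown. Capitals mark matches to the letters of an E2F site, a cell cycle homology region (CHR), a CCAAT box, an ETS site or a GC box on either strand.
Xrcc5: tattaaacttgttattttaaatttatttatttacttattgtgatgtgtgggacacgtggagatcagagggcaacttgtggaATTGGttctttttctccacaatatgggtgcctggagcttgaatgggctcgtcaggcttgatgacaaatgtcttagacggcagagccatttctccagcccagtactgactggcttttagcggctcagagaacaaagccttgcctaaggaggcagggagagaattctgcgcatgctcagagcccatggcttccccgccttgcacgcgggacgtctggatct
Xrcc6: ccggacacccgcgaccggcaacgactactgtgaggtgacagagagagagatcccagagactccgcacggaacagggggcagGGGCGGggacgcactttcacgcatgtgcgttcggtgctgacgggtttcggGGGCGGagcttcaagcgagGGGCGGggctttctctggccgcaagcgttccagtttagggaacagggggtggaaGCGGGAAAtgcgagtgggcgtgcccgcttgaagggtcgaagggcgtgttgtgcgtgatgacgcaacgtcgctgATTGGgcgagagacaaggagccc
Trp53bp1: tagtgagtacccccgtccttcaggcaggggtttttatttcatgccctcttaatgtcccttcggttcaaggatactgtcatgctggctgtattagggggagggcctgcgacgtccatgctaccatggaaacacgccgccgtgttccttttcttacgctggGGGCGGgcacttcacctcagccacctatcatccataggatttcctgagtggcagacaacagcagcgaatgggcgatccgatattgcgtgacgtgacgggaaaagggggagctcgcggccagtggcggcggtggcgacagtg
Parp1: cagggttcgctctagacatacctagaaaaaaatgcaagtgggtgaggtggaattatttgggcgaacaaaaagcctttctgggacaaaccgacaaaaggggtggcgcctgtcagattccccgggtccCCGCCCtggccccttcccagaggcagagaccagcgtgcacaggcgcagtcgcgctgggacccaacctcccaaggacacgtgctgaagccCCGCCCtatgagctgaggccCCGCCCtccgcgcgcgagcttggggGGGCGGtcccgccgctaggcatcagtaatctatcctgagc
Lig3: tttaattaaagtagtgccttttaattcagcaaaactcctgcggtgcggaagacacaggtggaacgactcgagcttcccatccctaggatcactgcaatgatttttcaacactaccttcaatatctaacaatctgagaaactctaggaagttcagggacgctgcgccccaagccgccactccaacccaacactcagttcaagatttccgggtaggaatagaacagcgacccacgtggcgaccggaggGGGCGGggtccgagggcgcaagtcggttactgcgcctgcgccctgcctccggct
Ercc2: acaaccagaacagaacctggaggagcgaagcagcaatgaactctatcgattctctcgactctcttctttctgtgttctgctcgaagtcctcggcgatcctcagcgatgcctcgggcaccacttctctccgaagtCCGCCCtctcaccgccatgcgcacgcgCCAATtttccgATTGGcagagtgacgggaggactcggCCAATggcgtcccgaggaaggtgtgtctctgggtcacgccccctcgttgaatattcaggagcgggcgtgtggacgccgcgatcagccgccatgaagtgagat
The letters searched were TTTGGCGC, TTTCCCGC, TTTGGCGG and TTTCCCGG for E2F, the factors that switch on genes of the replication phase, TTTGAA for the CHR, CCAAT for the CCAAT box, CCGGAAG for ETS factors and GGGCGG for the GC box, on both strands and with overlaps between motifs allowed. Xrcc6 had matches to E2F, GC box and CCAAT letters. Parp1, Lig3 and Trp53bp1 had GC box letters and none of the others, Ercc2 had GC box and CCAAT letters, and Xrcc5 had a single CCAAT box.

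Of the 47 genes, 38 had a promoter in the table, 41 promoters in all. The entries not found were those of Polb, Prkdc, Rad50, Nbn, H2afx, Fancd2, Xpc, Ddb2 and Ercc3. E2F letters stood in 8 of the 41 promoters, 19.5%, where 3.32% of all 32851 promoters of the table had them. The 8 genes were Bard1, Brca2, Chek1, Chek2, Mdc1, Msh3, Msh6 and Xrcc6, of which Msh6 and Xrcc6 were called higher in CD115-Ly6C- against CD115+Ly6C+ and Bard1 was called lower. GC box letters stood in 78.0% of the 41 promoters and 35.7% of all, CCAAT letters in 56.1% and 37.4%, and ETS letters in 26.8% and 8.86%. CHR letters stood in 1 promoter, that of Bard1, or 2.44%, against 17.9% of all. These are matches of letters and say nothing of binding.

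Non-homologous end joining held the largest fold change of the 47 genes. Its first step is the binding of broken ends by Ku, a ring made of 1 Ku80 subunit, encoded by Xrcc5, and 1 Ku70 subunit, encoded by Xrcc6. Xrcc5 (chromosome 1, 72307417 to 72394953) stood at 8.04 and 7.77 FPKM in CD115-Ly6C-, 0.64 and 0.19 FPKM in CD115+Ly6C+, and 1.10 and 1.01 FPKM in CD115+Ly6C-. The corresponding expected counts were 351 and 353, 29 and 8, and 51 and 46, so the low subsets rest on few reads. Both CD115-Ly6C- libraries lay above all 4 CD115+ libraries. CD115-Ly6C- exceeded CD115+Ly6C+ in Xrcc5 by a log2 fold change of 4.05 ± 0.44 (SE), 16.5-fold, with an edgeR adjusted p of 2.81e-04, and CD115+Ly6C- by 2.78 ± 0.40, 6.87-fold, with an adjusted p of 0.00369. The first of these was 5.18 without CD115+Ly6C+ replicate 1 and 3.44 without its replicate 2, so its size rests on the 29 and 8 counts of those libraries. In CD115+Ly6C+ against CD115+Ly6C- the value was -1.27 ± 0.46 and was not called (adjusted p 0.114 by edgeR), but it was called without CD115+Ly6C+ replicate 1 (-2.40, adjusted p 0.0277) and with no filter on low counts (-1.27, 0.0358).

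Xrcc6 (chromosome 15, 81987833 to 82040085) had the same order of subsets on a far higher level, with 189.8 and 192 FPKM in CD115-Ly6C-, 78.7 and 86.8 FPKM in CD115+Ly6C+, and 129 and 114 FPKM in CD115+Ly6C-. The subsets did not overlap. Its log2 fold change was 1.01 ± 0.12 for CD115-Ly6C- against CD115+Ly6C+ (adjusted p 3.61e-04 by edgeR), 0.54 ± 0.12 for CD115-Ly6C- against CD115+Ly6C- (0.0195) and -0.48 ± 0.12 for CD115+Ly6C+ against CD115+Ly6C- (0.0388). The FPKM of Xrcc6 over that of Xrcc5 was 23.6 and 24.7 in the CD115-Ly6C- libraries, 123 and 457 in those of CD115+Ly6C+, and 117 and 112 in the CD115+Ly6C- libraries. The transcript reference behind the FPKM is not given in the sources used here, and whether the isoforms it holds lower the level of Xrcc5 was not tested. The libraries' strandedness is not given in the sources used here, and 8.50% of the exon bases of Xrcc6 are shared with Desi1 on the opposite strand. Desi1 was also higher in CD115-Ly6C-, by 1.35 ± 0.17 against CD115+Ly6C+ (adjusted p 5.01e-04 by edgeR) and by 0.89 ± 0.16 against CD115+Ly6C- (0.0109).

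The other end joining genes varied less. Prkdc, the kinase that Ku recruits to the break, stood at 4.51 and 4.43 FPKM in CD115-Ly6C-, 3.12 and 2.44 FPKM in CD115+Ly6C+, and 3.47 and 4.41 FPKM in CD115+Ly6C-. The Prkdc log2 fold change was 0.49 ± 0.16 for CD115-Ly6C- against CD115+Ly6C+ (adjusted p 0.0377 by edgeR), a call that was lost in 5 of the 13 settings, among them the one that removes the trend with gene length, where the value was 0.08. Lig4, the ligase that seals the ends, was the least abundant gene of the 47, with 1.49 and 1.59 FPKM in CD115-Ly6C-, 0.91 and 0.64 FPKM in CD115+Ly6C+, and 1.15 and 0.97 FPKM in CD115+Ly6C-. Its values for CD115-Ly6C- lay above all others, but the difference from CD115+Ly6C+, 0.80 ± 0.32, was not called (adjusted p 0.0808 by edgeR), although it was with library totals (0.99, 0.0409). Xrcc4, the partner of Lig4, had 18.7 and 18.9 FPKM in CD115-Ly6C-, 12.6 and 14.8 FPKM in CD115+Ly6C+, and 17.8 and 14.4 FPKM in CD115+Ly6C-, with no call. Nhej1, the accessory factor XLF, was not called either, at -0.51 ± 0.19 for CD115-Ly6C- against CD115+Ly6C+ (adjusted p 0.0569 by edgeR), although it was without CD115+Ly6C+ replicate 1 (-0.70, 0.0343). Dclre1c, the Artemis nuclease that opens hairpins during antigen receptor rearrangement, lay between 4.65 and 7.32 FPKM in all 6 libraries. Over the pathway, 3 of 7 genes were higher and 0 lower in CD115-Ly6C- against CD115+Ly6C+ (20.1% and 19.2% of all genes). In CD115-Ly6C- against CD115+Ly6C-, 2 were higher and 0 lower (8.43% and 6.78% of all genes). In CD115+Ly6C+ against CD115+Ly6C-, 0 were higher and 1 lower (5.26% and 4.34% of all genes).

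**Figure D3:**
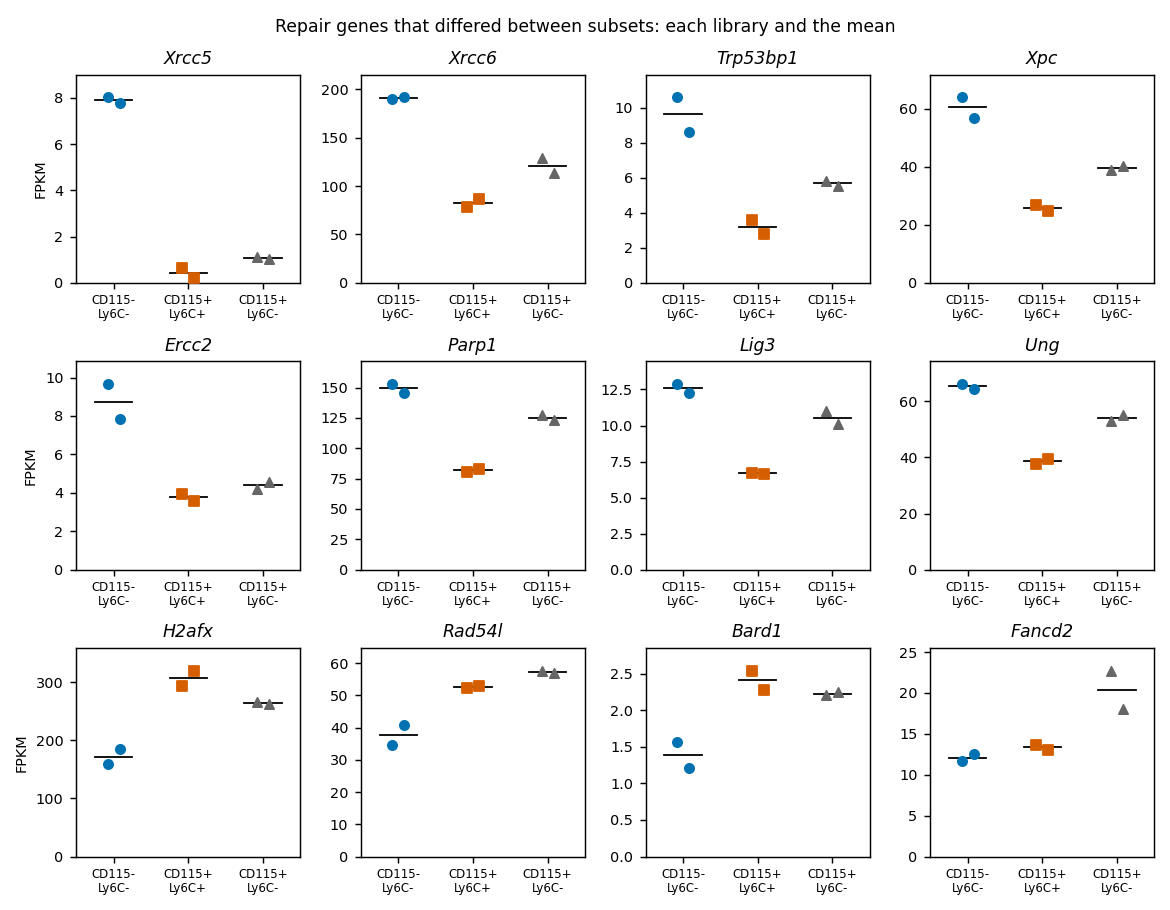
FPKM of selected repair genes in each of the 6 libraries, with CD115-Ly6C- at the left, CD115+Ly6C+ in the middle and CD115+Ly6C- at the right. Each point is a library, the black line is the mean of the 2, and each panel has its own axis from 0, so that the low Xrcc5 of 0.64 and 0.19 FPKM in CD115+Ly6C+ can be set beside the opposite order of H2afx, at 293 and 320.0 FPKM there.

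Break sensing and checkpoint signalling held opposite changes in the RNA of H2afx and Trp53bp1, whose proteins act in the chromatin around a break. H2afx (chromosome 9, 44334715 to 44336077) encodes the histone variant that the kinases Atm, Atr and Prkdc phosphorylate around a break, and Trp53bp1 encodes 53BP1, which binds the modified chromatin and steers repair toward end joining. H2afx stood at 159 and 185 FPKM in CD115-Ly6C-, 293 and 320.0 FPKM in CD115+Ly6C+, and 266 and 263 FPKM in CD115+Ly6C-. Its log2 fold change was -1.03 ± 0.12 for CD115-Ly6C- against CD115+Ly6C+ (adjusted p 4.13e-04 by edgeR) and -0.74 ± 0.12 for CD115-Ly6C- against CD115+Ly6C- (0.00655), the second lost without CD115-Ly6C- replicate 1 (-0.61, adjusted p 0.0627). CD115+Ly6C+ against CD115+Ly6C- was not called, at 0.29 ± 0.12 (adjusted p 0.164 by edgeR). H2afx makes a polyadenylated transcript and a histone-type transcript without a polyA tail, and libraries selected for polyA hold the first.

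Trp53bp1 (chromosome 2, 121194835 to 121296354) stood at 10.6 and 8.63 FPKM in CD115-Ly6C-, 3.57 and 2.77 FPKM in CD115+Ly6C+, and 5.82 and 5.55 FPKM in CD115+Ly6C-. The subsets did not overlap. It was called in all 3 comparisons, with log2 fold changes of 1.41 ± 0.16 for CD115-Ly6C- against CD115+Ly6C+ (adjusted p 2.96e-04 by edgeR), 0.64 ± 0.15 for CD115-Ly6C- against CD115+Ly6C- (0.0271) and -0.77 ± 0.15 for CD115+Ly6C+ against CD115+Ly6C- (0.0206). The FPKM of H2afx over that of Trp53bp1 was 14.9 and 21.4 in the CD115-Ly6C- libraries, 82.1 and 116 in those of CD115+Ly6C+, and 45.7 and 47.4 in the CD115+Ly6C- libraries. Of the exon bases of Trp53bp1, 22.1% are shared with Tubgcp4 on the opposite strand. Tubgcp4 was not called in any comparison, with log2 fold changes of -0.29, -0.14 and 0.15 in the same order.

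The 8 other genes of break sensing were not called by edgeR. The subunits of the MRN complex, the first sensor of a broken end, were among them: Mre11a lay between 12.7 and 14.7 FPKM, and Nbn between 23.3 and 30.2 FPKM. Rad50 had 22.5 and 24.4 FPKM in CD115-Ly6C-, 20.1 and 21.1 FPKM in CD115+Ly6C+, and 36.4 and 24.4 FPKM in CD115+Ly6C-, so that its CD115+Ly6C- libraries differed more from each other than the second did from CD115-Ly6C-. Without CD115+Ly6C- replicate 2, Rad50 was called lower in CD115-Ly6C- against CD115+Ly6C- (-0.77, adjusted p 0.0263 by edgeR) and in CD115+Ly6C+ against CD115+Ly6C- (-0.77, 0.0342). It was also called lower in the first of these by DESeq2 (-0.51, adjusted p 0.0494) and in both with no filter on low counts (-0.50, adjusted p 0.0214 and 0.0301 by edgeR). Atm, the kinase that answers double-strand breaks, stood at 4.44 and 3.27 FPKM in CD115-Ly6C-, 2.82 and 1.79 FPKM in CD115+Ly6C+, and 3.82 and 2.65 FPKM in CD115+Ly6C-, and its value of 0.56 ± 0.23 for CD115-Ly6C- against CD115+Ly6C+ was not called (adjusted p 0.0789 by edgeR), although it was without CD115+Ly6C+ replicate 1 (0.82, 0.0468), with library totals (0.75, 0.0311), with no filter (0.56, 0.0272) and with the replicate number as a block (0.57, 0.0172). Atr, the kinase that answers stalled replication forks, lay between 4.53 and 6.39 FPKM, and its effector kinase Chek1 between 17.6 and 22.5 FPKM. Chek2, the effector kinase of Atm, lay between 22.1 and 29.4 FPKM, and Mdc1, the adaptor that reads phosphorylated H2afx, between 3.06 and 5.53 FPKM. With library totals, Mdc1 was called higher in CD115-Ly6C- against CD115+Ly6C+ (0.57, adjusted p 0.0368 by edgeR).

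Of the 10 genes of base excision and single-strand break repair, 4 were called in at least 1 comparison, where at least 39.3% of all genes were. In CD115-Ly6C- against CD115+Ly6C+, 3 of 10 were higher and 1 lower (20.1% and 19.2% of all genes). In CD115-Ly6C- against CD115+Ly6C-, none of the 10 was called, where 15.2% of all genes were. In CD115+Ly6C+ against CD115+Ly6C-, 0 were higher and 3 lower (5.26% and 4.34% of all genes). At an unadjusted p under 0.05, edgeR had 0 higher and 1 lower in the comparison without calls, and DESeq2 called Parp2 lower there (adjusted p 0.0180). Parp1 (chromosome 1, 180568891 to 180600999), the main sensor of strand nicks and the maker of most poly(ADP-ribose), stood at 153 and 145 FPKM in CD115-Ly6C-, 80.7 and 82.95 FPKM in CD115+Ly6C+, and 127 and 123 FPKM in CD115+Ly6C-. CD115-Ly6C- exceeded CD115+Ly6C+ by 0.67 ± 0.10 on the log2 scale (adjusted p 0.00117 by edgeR) and CD115+Ly6C+ was below CD115+Ly6C-, with a log2 fold change of -0.54 ± 0.10 (0.0158).

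Lig3 (chromosome 11, 82781109 to 82804274), the ligase that closes the mended nick, stood at 12.9 and 12.3 FPKM in CD115-Ly6C-, 6.71 and 6.64 FPKM in CD115+Ly6C+, and 10.98 and 10.1 FPKM in CD115+Ly6C-. Its log2 fold change was 0.72 ± 0.12 for CD115-Ly6C- against CD115+Ly6C+ (adjusted p 0.002 by edgeR) and -0.59 ± 0.12 for CD115+Ly6C+ against CD115+Ly6C- (0.0208). Of its exon bases, 27.9% are shared with Rffl on the opposite strand, which was not called in any comparison. Ung (chromosome 5, 114130366 to 114139321), the glycosylase that takes uracil out of DNA and acts in antibody diversification, stood at 66.3 and 64.4 FPKM in CD115-Ly6C-, 37.8 and 39.4 FPKM in CD115+Ly6C+, and 53.1 and 54.9 FPKM in CD115+Ly6C-. CD115-Ly6C- stood above CD115+Ly6C+ by 0.57 ± 0.10 on the log2 scale (adjusted p 0.0035 by edgeR), and CD115+Ly6C+ against CD115+Ly6C- gave -0.41 ± 0.10 (0.0437). For Parp1, Lig3 and Ung, both CD115+Ly6C+ libraries were the lowest of the 6, which restates their lower calls in that subset.

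Parp2, the second polymerase of poly(ADP-ribose) at nicks, went the other way from Parp1. It stood at 54.4 and 61.5 FPKM in CD115-Ly6C-, 65.9 and 86.2 FPKM in CD115+Ly6C+, and 82.7 and 71.7 FPKM in CD115+Ly6C-, and was lower in CD115-Ly6C- than in CD115+Ly6C+, at -0.59 ± 0.16 (adjusted p 0.0194 by edgeR). That call was lost without CD115+Ly6C+ replicate 2 (-0.36, adjusted p 0.137), without CD115-Ly6C- replicate 1 (-0.47, 0.109) and with scaling by library totals (-0.39, 0.0616). CD115-Ly6C- against CD115+Ly6C- gave -0.53 ± 0.16 (adjusted p 0.0558 by edgeR), which was called without CD115+Ly6C+ replicate 1 (-0.54, 0.0346) or replicate 2 (-0.54, 0.0343). The FPKM of Parp1 over that of Parp2 was 2.82 and 2.36 in the CD115-Ly6C- libraries, 1.22 and 0.962 in those of CD115+Ly6C+, and 1.54 and 1.71 in the CD115+Ly6C- libraries.

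The remaining 6 base excision genes were not called. The glycosylases Ogg1, Mutyh and Nthl1, which remove oxidised bases or their mispairs, lay between 7.91 and 10.4, between 8.45 and 10.2, and between 11.7 and 14.2 FPKM over the 6 libraries. Apex1, the nuclease that cuts the backbone where a base is missing, lay between 204 and 240.0 FPKM. Of its exon bases, 70.8% are shared with Pip4p1 on the opposite strand. Reads of Pip4p1 could be assigned in part to Apex1 if the counting did not use strand, which was not tested. Polb, the polymerase that fills the gap, had 30.8 and 33.7 FPKM in CD115-Ly6C-, 36.0 and 35.9 FPKM in CD115+Ly6C+, and 23.2 and 30.0 FPKM in CD115+Ly6C-. Xrcc1, the scaffold that carries Lig3, had 29.5 and 28.2 FPKM in CD115-Ly6C-, 31.3 and 22.2 FPKM in CD115+Ly6C+, and 20.5 and 23.7 FPKM in CD115+Ly6C-. The FPKM of Lig3 over that of its partner Xrcc1 was 0.438 and 0.434 in the CD115-Ly6C- libraries, 0.214 and 0.299 in those of CD115+Ly6C+, and 0.537 and 0.427 in the CD115+Ly6C- libraries.

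Nucleotide excision repair had 5 of 7 genes called in at least 1 comparison, where at least 39.3% of all genes were. In CD115-Ly6C- against CD115+Ly6C+, 4 of the 7 were higher and 1 lower (20.1% and 19.2% of all genes). In CD115-Ly6C- against CD115+Ly6C-, 2 were higher and 0 lower (8.43% and 6.78% of all genes). In CD115+Ly6C+ against CD115+Ly6C-, 0 were higher and 2 lower (5.26% and 4.34% of all genes). The 4 genes higher in CD115-Ly6C- against CD115+Ly6C+ were Xpc, Ddb1, Ddb2 and Ercc2. Xpc (chromosome 6, 91489305 to 91515888), which binds distorted DNA, stood at 64.1 and 56.8 FPKM in CD115-Ly6C-, 26.7 and 24.9 FPKM in CD115+Ly6C+, and 38.9 and 40.3 FPKM in CD115+Ly6C-. The subsets did not overlap, and Xpc was called in all 3 comparisons, with log2 fold changes of 1.03 ± 0.10 for CD115-Ly6C- against CD115+Ly6C+ (adjusted p 1.83e-04 by edgeR), 0.49 ± 0.10 for CD115-Ly6C- against CD115+Ly6C- (0.0174) and -0.55 ± 0.10 for CD115+Ly6C+ against CD115+Ly6C- (0.0174).

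Ddb1 and Ddb2 together form the ultraviolet-damaged DNA binding complex, and Ddb1 is also the adaptor of a large family of ubiquitin ligases. Ddb1 (chromosome 19, 10605568 to 10629828) stood at 136 and 116 FPKM in CD115-Ly6C-, 73.96 and 66.9 FPKM in CD115+Ly6C+, and 102 and 108 FPKM in CD115+Ly6C-. Its level in CD115-Ly6C- exceeded that in CD115+Ly6C+ by 0.65 ± 0.11 on the log2 scale (adjusted p 0.00232 by edgeR) and CD115+Ly6C+ against CD115+Ly6C- gave -0.51 ± 0.11 (0.0276). Ddb2 stood lower at 14.7 and 14.0 FPKM in CD115-Ly6C-, 10.3 and 9.15 FPKM in CD115+Ly6C+, and 11.1 and 12.7 FPKM in CD115+Ly6C-, with a log2 fold change of 0.48 ± 0.15 for CD115-Ly6C- against CD115+Ly6C+ (adjusted p 0.0349 by edgeR). The Ddb2 call was lost in 7 of the 13 settings, with adjusted p of 0.0505 to 0.136, and 26.7% of its exon bases are shared with Acp2 on the opposite strand, which was not called.

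Ercc2 and Ercc3 encode the helicases XPD and XPB of the general factor TFIIH, which opens the DNA around a lesion and also at promoters. Ercc2 (chromosome 7, 19382017 to 19395694) stood at 9.68 and 7.82 FPKM in CD115-Ly6C-, 3.94 and 3.58 FPKM in CD115+Ly6C+, and 4.22 and 4.57 FPKM in CD115+Ly6C-, both CD115-Ly6C- libraries being above the other 4. Its log2 fold change was 1.02 ± 0.17 for CD115-Ly6C- against CD115+Ly6C+ (adjusted p 0.00227 by edgeR) and 0.87 ± 0.17 for CD115-Ly6C- against CD115+Ly6C- (0.0135), the second lost without either CD115+Ly6C- library and without CD115-Ly6C- replicate 1. Of its exon bases, 16.4% are shared with Klc3 on the opposite strand, which was also higher in CD115-Ly6C- against CD115+Ly6C+ (7.17 ± 1.52, adjusted p 0.0083 by edgeR). Ercc3 lay between 11.5 and 12.5 FPKM in all 6 libraries. Ercc1, part of the nuclease that cuts 5′ of the lesion, had the opposite sign to Ercc2, with 27.9 and 29.8 FPKM in CD115-Ly6C-, 33.5 and 39.6 FPKM in CD115+Ly6C+, and 41.8 and 34.6 FPKM in CD115+Ly6C-, and a log2 fold change of -0.53 ± 0.17 for CD115-Ly6C- against CD115+Ly6C+ (adjusted p 0.0324 by edgeR). The Ercc1 call was lost in 5 of the 13 settings, without CD115+Ly6C+ replicate 2 (-0.39, adjusted p 0.181) and with the trend with gene length removed (-0.19, 0.420) among them. In CD115-Ly6C- against CD115+Ly6C-, Ercc1 was not called by edgeR but was lower by DESeq2 (-0.53, adjusted p 0.0451) and with no filter on low counts (-0.52, adjusted p 0.0410 by edgeR). Xpa, which verifies the lesion, was not called and lay between 7.0 and 11.7 FPKM.

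Of the 7 homologous recombination genes, 0 were called higher and 3 lower in CD115-Ly6C- against CD115+Ly6C- (8.43% and 6.78% of all genes). The median of the 7 log2 fold changes was -0.49 there. In CD115-Ly6C- against CD115+Ly6C+, 1 was higher and 2 lower (20.1% and 19.2% of all genes). In CD115+Ly6C+ against CD115+Ly6C- none was called, where 9.60% of all genes were (0 higher and 1 lower at an unadjusted p under 0.05 in edgeR, and none by DESeq2). Rad54l (chromosome 4, 116094261 to 116123700), the motor protein that helps the invading strand pair with its template, stood at 34.6 and 41.0 FPKM in CD115-Ly6C-, 52.2 and 52.9 FPKM in CD115+Ly6C+, and 57.7 and 57.1 FPKM in CD115+Ly6C-. Both CD115-Ly6C- libraries were the lowest, at -0.66 ± 0.12 on the log2 scale against CD115+Ly6C+ (adjusted p 0.00279 by edgeR) and -0.72 ± 0.12 against CD115+Ly6C- (0.00631), the second lost without CD115-Ly6C- replicate 1 (-0.59, 0.0623).

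Brca1 and Bard1 form the ubiquitin ligase that directs broken ends to recombination. Bard1 stood at 1.56 and 1.21 FPKM in CD115-Ly6C-, 2.54 and 2.28 FPKM in CD115+Ly6C+, and 2.20 and 2.25 FPKM in CD115+Ly6C-, and was lower in CD115-Ly6C-, with a log2 fold change of -0.99 ± 0.22 against CD115+Ly6C+ (adjusted p 0.0075 by edgeR) and of -0.81 ± 0.22 against CD115+Ly6C- (0.0397). Brca1 stood at 10.6 and 10.2 FPKM in CD115-Ly6C-, 9.53 and 9.81 FPKM in CD115+Ly6C+, and 14.9 and 12.0 FPKM in CD115+Ly6C-, so that in FPKM both CD115+Ly6C+ libraries were the lowest. The fit, which scales the libraries by TMM as well, gave -0.09 ± 0.13 for CD115-Ly6C- against CD115+Ly6C+ (adjusted p 0.637 by edgeR). No order of these 2 subsets is read from Brca1. Its one call was -0.49 ± 0.13 for CD115-Ly6C- against CD115+Ly6C- (adjusted p 0.042 by edgeR). The calls against CD115+Ly6C- were each lost in 8 of the 13 settings, with edgeR adjusted p of 0.0503 to 0.241 for Brca1 and 0.0501 to 0.158 for Bard1. The call of Bard1 against CD115+Ly6C+ was kept in all 13.

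Rad52, which can anneal single strands, had the opposite direction to Rad54l. It stood at 10.5 and 13.2 FPKM in CD115-Ly6C-, 7.33 and 5.43 FPKM in CD115+Ly6C+, and 8.75 and 6.71 FPKM in CD115+Ly6C-. Its log2 fold change was 0.71 ± 0.25 for CD115-Ly6C- against CD115+Ly6C+ (adjusted p 0.048 by edgeR), just under the threshold, and the call was lost in 8 of the 13 settings, with adjusted p of 0.0509 to 0.237. Palb2, the bridge between Brca1 and Brca2, lay between 6.60 and 9.53 FPKM, Brca2 between 2.22 and 4.03 FPKM, and the helicase Blm between 15.6 and 21.4 FPKM, none of them called. Brca2 was called lower in CD115-Ly6C- against CD115+Ly6C- in some other settings, with no filter on low counts (-0.56, adjusted p 0.0351 by edgeR), with only the 4 libraries compared (-0.55, 0.0494) and with the trend with gene length removed (-0.67, 0.0249). With that trend removed it was also called lower in CD115-Ly6C- against CD115+Ly6C+ (-0.58, adjusted p 0.0208 by edgeR, and -0.20 otherwise).

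Of the 3 Fanconi anaemia genes, Fancd2 and Fanci were highest in the CD115+Ly6C- libraries. Fancd2 and Fanci encode the paired clamp that is ubiquitinated at a crosslink, and Fanca is a subunit of the ligase complex that does so. Fancd2 (chromosome 6, 113531640 to 113597020) stood at 11.7 and 12.5 FPKM in CD115-Ly6C-, 13.7 and 13.04 FPKM in CD115+Ly6C+, and 22.7 and 18.1 FPKM in CD115+Ly6C-, both CD115+Ly6C- libraries being above the other 4. Its log2 fold change was -0.89 ± 0.14 for CD115-Ly6C- against CD115+Ly6C- (adjusted p 0.00543 by edgeR) and -0.55 ± 0.14 for CD115+Ly6C+ against CD115+Ly6C- (0.0434), and -0.34 ± 0.14 for CD115-Ly6C- against CD115+Ly6C+ was not called (0.0839), although it was with the trend with gene length removed (-0.63, 0.0108). Fanci was called lower in CD115-Ly6C- against CD115+Ly6C- (-0.60 ± 0.17, adjusted p 0.0489 by edgeR), and its CD115+Ly6C- libraries stood apart from each other at 23.5 and 16.7 FPKM. Of its exon bases, 13.4% are shared with Polg on the opposite strand, which was not called. The Fanci call was lost in 9 of the 13 settings, with adjusted p of 0.0503 to 0.282. The FPKM of Fancd2 over that of Fanci stayed between 0.828 and 1.08 in all 6 libraries. Fanca was not called and lay between 3.03 and 4.88 FPKM.

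Mismatch repair had 3 genes here. Msh6, which pairs with another MutS protein to find single mispaired bases, stood at 53.2 and 52.5 FPKM in CD115-Ly6C-, 33.8 and 32.6 FPKM in CD115+Ly6C+, and 44.1 and 43.3 FPKM in CD115+Ly6C-. The subsets did not overlap, and the call was that for CD115-Ly6C- against CD115+Ly6C+, a log2 fold change of 0.48 ± 0.10 (adjusted p 0.00541 by edgeR), which fell short with the trend with gene length removed (0.24, 0.104). CD115+Ly6C+ against CD115+Ly6C- gave -0.33 ± 0.10 and was not called by edgeR (adjusted p 0.0681), although it was by DESeq2 (0.0300) and with scaling by library totals (0.0340). Msh3, which takes the place of Msh6 for longer loops, lay between 10.5 and 14.4 FPKM, and Pms2, the nuclease of the MutL pair, between 12.2 and 19.3 FPKM. Neither was called.

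Set side by side across pathways, the calls fell into a few orders of the subsets, with the reminder that the comparisons share libraries. Called higher in CD115-Ly6C- against CD115+Ly6C+ and lower in CD115+Ly6C+ against CD115+Ly6C- were Ung, Lig3, Parp1, Xrcc6, Trp53bp1, Xpc and Ddb1. Called higher in CD115-Ly6C- against both other subsets were Xrcc5, Xrcc6, Trp53bp1, Xpc and Ercc2, and lower against both were Bard1, Rad54l and H2afx. Fancd2, Fanci and Brca1 were called lower in CD115-Ly6C- against CD115+Ly6C- without a call against CD115+Ly6C+. Called only in CD115-Ly6C- against CD115+Ly6C+ were Msh6, Prkdc, Rad52 and Ddb2 (higher) and Parp2 and Ercc1 (lower). In that comparison 12 of 18 calls were kept in all 13 settings. The same held for 2 of 11 in CD115-Ly6C- against CD115+Ly6C- and 0 of 8 in CD115+Ly6C+ against CD115+Ly6C-, so many of these orders depend on the setting.

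Gene length, here the transcript length listed with the counts and not the span on the chromosome, moved with the differences over all genes. Spearman's rho between log2 fold change and length was 0.33 over the 12127 genes for CD115-Ly6C- against CD115+Ly6C+, 0.18 for CD115-Ly6C- against CD115+Ly6C- and -0.33 for CD115+Ly6C+ against CD115+Ly6C-, as a description over genes, which are not replicates. In the first of these, the longest 25% of all genes had a median log2 fold change of 0.31 and the shortest a median of -0.34. The repair genes had a median length of 3547 bases against 2810 for all genes, with 16 of the 47 in the longest 25% and 11 in the shortest. With the trend removed, 4 of the 8 calls of CD115+Ly6C+ against CD115+Ly6C- were lost (Lig3, Trp53bp1, Fancd2 and Ddb1, with edgeR adjusted p of 0.0553 to 0.162), and 3 of the 18 of CD115-Ly6C- against CD115+Ly6C+ (Prkdc, Msh6 and Ercc1, 0.104 to 0.713), while all 11 of CD115-Ly6C- against CD115+Ly6C- were kept. Lower calls were gained in the same fit for Brca2 (-0.58, adjusted p 0.0208 by edgeR), Mre11a (-0.48, 0.0191) and Fancd2 (-0.63, 0.0108) in CD115-Ly6C- against CD115+Ly6C+, where the lower genes came to 7 in place of 5. In CD115-Ly6C- against CD115+Ly6C-, Brca2 was gained (-0.67, adjusted p 0.0249 by edgeR), for 7 lower genes in place of 6.

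Further genes of the same pathways are set beside the 47. A list of 111 further repair genes, each counted once, had 11 higher and 28 lower in CD115-Ly6C- against CD115+Ly6C+ (median log2 fold change -0.13), 1 higher and 20 lower in CD115-Ly6C- against CD115+Ly6C- (-0.16), and 2 higher and 3 lower in CD115+Ly6C+ against CD115+Ly6C- (-0.06). Over all 12127 genes, 20.1% were higher and 19.2% lower in the first, 8.43% and 6.78% in the second, and 5.26% and 4.34% in the third. The lists that follow stand against the same shares. Further genes of homologous recombination held many of the lower calls, with 13 of 31 lower and 4 higher in CD115-Ly6C- against CD115+Ly6C+, 13 lower and 0 higher in CD115-Ly6C- against CD115+Ly6C-, and 1 lower and 0 higher in CD115+Ly6C+ against CD115+Ly6C-. Among them, Rad51ap1, a helper of strand invasion, had a log2 fold change of -1.06 ± 0.14 in CD115-Ly6C- against CD115+Ly6C+ (adjusted p 7.24e-04 by edgeR), and the nuclease and helicase Dna2 one of -0.91 ± 0.11 (5.13e-04). Of 16 further base excision genes, 1 was higher and 4 lower in CD115-Ly6C- against CD115+Ly6C+. The glycosylase Neil3 had a log2 fold change of -1.12 ± 0.13 there (adjusted p 3.28e-04 by edgeR) and of -0.93 ± 0.13 against CD115+Ly6C- (0.00314).

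Of 18 further nucleotide excision genes, 2 were higher and 1 lower in CD115-Ly6C- against CD115+Ly6C+, and the TFIIH subunit Gtf2h3 was higher by 1.05 ± 0.13 (adjusted p 5.27e-04 by edgeR) and lower in CD115+Ly6C+ than in CD115+Ly6C-, at -0.77 ± 0.13 (0.0118). Poll, a polymerase of end joining, had a log2 fold change of 0.62 ± 0.14 for CD115-Ly6C- over CD115+Ly6C+ (adjusted p 0.0078 by edgeR), and Poli, a polymerase that copies past lesions, one of 0.70 ± 0.15 (0.00638). Of 14 further Fanconi genes, 1 was higher and 4 lower in CD115-Ly6C- against CD115+Ly6C+, and 0 were higher and 2 lower against CD115+Ly6C-. Fancb, of the ligase complex, was lower in CD115-Ly6C- than in CD115+Ly6C-, at -1.07 ± 0.16 (adjusted p 0.00419 by edgeR). Usp1, the protease that takes ubiquitin off Fancd2, had a log2 fold change of 1.34 ± 0.23 for CD115+Ly6C+ over CD115+Ly6C- (adjusted p 0.0121 by edgeR) and of -1.20 ± 0.23 for CD115-Ly6C- over CD115+Ly6C+ (0.0041).

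**Figure D4:**
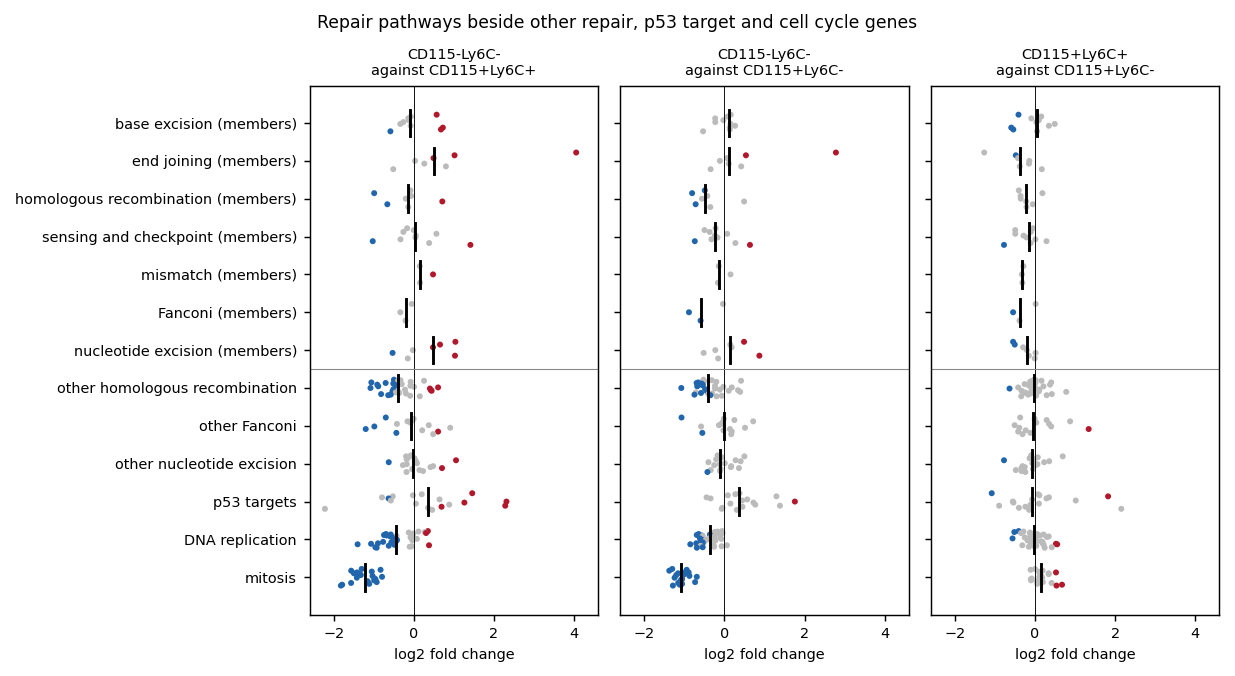
Log2 fold change in the 3 comparisons, 1 point per gene, for the 47 genes by pathway and for further lists. The lists drawn are further homologous recombination, Fanconi and nucleotide excision genes, p53 targets, DNA replication genes and mitosis genes. Red points were called higher, blue points called lower and grey points not called, and the black bar is the median of each row. For mitosis genes it is -1.23 in CD115-Ly6C- against CD115+Ly6C+, -1.08 in CD115-Ly6C- against CD115+Ly6C- and 0.14 in CD115+Ly6C+ against CD115+Ly6C-. The medians over all 47 repair genes, which have no bar of their own, were -0.03, -0.14 and -0.21.

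Genes of cell division, which mark cells in cycle, had medians further from 0 than the repair genes in both comparisons of CD115-Ly6C-. Of 20 mitosis genes, all 20 were lower in CD115-Ly6C- against CD115+Ly6C+ and all 20 lower in CD115-Ly6C- against CD115+Ly6C-, and 3 were higher in CD115+Ly6C+ against CD115+Ly6C-. The shares of all genes were 19.2% lower, 6.78% lower and 5.26% higher in the same order. Ube2c, which drives the exit from mitosis, was lower in CD115-Ly6C-, with log2 fold changes of -1.82 ± 0.14 against CD115+Ly6C+ (adjusted p 4.89e-05 by edgeR) and -1.29 ± 0.14 against CD115+Ly6C- (0.00136). Of 35 DNA replication genes, 3 were higher and 20 lower in CD115-Ly6C- against CD115+Ly6C+ (median -0.45), 0 higher and 14 lower in CD115-Ly6C- against CD115+Ly6C- (median -0.36), and 2 higher and 3 lower in CD115+Ly6C+ against CD115+Ly6C-. Rad54l, Bard1 and H2afx had the same sign as these lists against both subsets, while Xrcc5, Xrcc6, Trp53bp1, Xpc and Ercc2 had the opposite sign. The part of the cell cycle in the results for the repair genes was not tested.

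Targets of p53, the factor that answers DNA damage, had 5 of 17 higher and 1 lower in CD115-Ly6C- against CD115+Ly6C+, 1 higher and 0 lower in CD115-Ly6C- against CD115+Ly6C-, and 1 higher and 1 lower in CD115+Ly6C+ against CD115+Ly6C-. The shares of all genes were 20.1% and 19.2%, 8.43% and 6.78%, and 5.26% and 4.34%. Trp53inp1, which carries p53 signals to cell death and autophagy, was higher in CD115-Ly6C- by 2.31 ± 0.18 against CD115+Ly6C+ (adjusted p 5.59e-05 by edgeR) and by 1.76 ± 0.18 against CD115+Ly6C- (9.93e-04). Cdkn1a, the cell cycle inhibitor p21, had a log2 fold change in CD115-Ly6C- over CD115+Ly6C+ of 1.46 ± 0.15 (adjusted p 1.86e-04 by edgeR), and was lower in CD115+Ly6C+ than in CD115+Ly6C-, at -1.08 ± 0.15 (0.00428). Xpc and Ddb2 of the nucleotide excision genes are known as targets of p53 in human cells. The part of p53 in their levels was not tested.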

How the data were processed

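RNA was measured by sequencing in 6 libraries of mouse common dendritic cell progenitors, 2 from each of 3 sorted subsets. Reads were aligned with Bowtie2 to mm10 and quantified with RSEM, per the submitters' processing notes, with versions and settings not given in the sources used here. The authors deposited RSEM expected counts and FPKM per gene and library, per the file headers, and 12.6% of the expected counts were not whole within 1e-06. A gene missing from a library's table was taken as 0. The FPKM of the deposited table of the whole series were the same (largest difference 0).

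Expected counts were rounded and tested with edgeR 4.0.16 in R 4.3.3: filterByExpr (minimum count 10, minimum total 15), TMM scaling, a quasi-likelihood fit of all 6 libraries with 1 coefficient per subset, and Benjamini-Hochberg adjustment over 12127 genes with a threshold of 0.05. The biological coefficient of variation was 15.2%, with 3 residual and 5.65 prior degrees of freedom. The SE is the size of the log2 fold change over the square root of F. The code was tested on simulated data. Replicates were not duplicates (correlation of log2 CPM 0.979 to 0.982). The libraries hold PCR products with no molecular identifiers named.

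Exon overlap was read from the GENCODE annotation of GRCm38 and gene positions from RefSeq GRCm38.p6, counted from 1. Genes past the threshold are given in full, up to 20, by smallest adjusted p with at least 1 per pathway, and Fanci, the 21st, in part. Up to 3 genes by adjusted p could be named from each further list, and up to 6 promoters by smallest adjusted p. The 47 genes and the lists were chosen with earlier results of these data known, so a count over them is a description. Alternatives were the size factors of DESeq2, library totals, no filter, DESeq2 1.42.0, the replicate number as a block, removal of the trend with gene length, only the 4 libraries compared, and leaving out each library. Some genes of these pathways are not reported here.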

Additional observations from a re-analysis of the deposited data

How the results depend on the processing

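Over the single repair genes, 110 results in an alternative lost a call, 29 gained one and 1694 stayed on the same side of the threshold. Of those 1694, 93 changed in sign and were called in neither fit, 20 of them with library totals and 19 with the length trend removed, while 0 called values turned in sign. Scaling by library totals moved the median of all genes by 0.19 in CD115-Ly6C- against CD115+Ly6C+, by 0.12 in CD115-Ly6C- against CD115+Ly6C- and by -0.07 in CD115+Ly6C+ against CD115+Ly6C-. With it the medians of the repair genes, -0.03, -0.14 and -0.21, became 0.16, -0.019 and -0.28, and repair genes called higher and lower were 16 and 3 (13 and 5 otherwise), 5 and 3 (5 and 6) and 0 and 9 (0 and 8). The median of -0.03 also turned in sign without CD115+Ly6C+ replicate 1 (0.02), without its replicate 2 (0.05) and without CD115-Ly6C- replicate 1 (0.090), so no direction is read from it.

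In CD115-Ly6C- against CD115+Ly6C-, the 6 lower repair genes became 10 with no filter on low counts. In CD115+Ly6C+ against CD115+Ly6C-, the 8 lower became 4 with the trend with gene length removed, and the 1164 genes called among all became 1810 with no filter, 1812 with DESeq2 and 715 with the length trend removed. The cause of these shifts was not tested. Leaving out each library in turn gave, for CD115-Ly6C- against CD115+Ly6C+, 10 to 13 repair genes higher, 3 to 6 lower, medians of -0.071 to 0.090 and 2983 to 4632 genes called among all. For CD115-Ly6C- against CD115+Ly6C- it gave 1 to 5 higher, 1 to 6 lower, medians of -0.23 to -0.090 and 485 to 1744 genes. For CD115+Ly6C+ against CD115+Ly6C- it gave 0 higher, 0 to 7 lower, medians of -0.31 to -0.20 and 220 to 1139 genes.

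With the replicate number as a block, 3 lower repair genes were left of 6 in CD115-Ly6C- against CD115+Ly6C- and 5 of 8 in CD115+Ly6C+ against CD115+Ly6C-. Deviations from the subset mean had correlations over genes of 0.15 between CD115+Ly6C+ and CD115-Ly6C-. They were -0.01 between CD115+Ly6C- and CD115-Ly6C-, and -0.004 between CD115+Ly6C- and CD115+Ly6C+. With 2 libraries per subset, these values cannot tell whether libraries of 1 number share a sort or batch. The labels do not say so either, and whether the calls lost under the block are weaker effects was not tested. The block also gained the call of Atm in CD115-Ly6C- against CD115+Ly6C+ (0.57, adjusted p 0.0172 by edgeR), a gene with replicate 1 above replicate 2 in all 3 subsets. Depth limits the genes of low level, such as Xrcc5 with 8 counts in a library.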
